A study of Mus musculus with 4 samples.

Results

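Elastic fibres give arteries, skin and erectile tissue their recoil, and 10 genes for their main structural proteins were followed here: Eln, Fbn1, Fbn2, Fbln1, Fbln2, Fbln5, Mfap2, Mfap4, Mfap5 and Emilin1. They were taken by symbol from the count tables, where all 10 were present, among 23238 symbols. An elastic fibre has a core of cross-linked elastin, laid down on a scaffold of fibrillin microfibrils. Microfibril-associated glycoproteins sit on that scaffold, fibulins and emilins join it to elastin, and enzymes of the lysyl oxidase family cross-link the core. In the vessel wall and in the corpus cavernosum, smooth muscle cells and fibroblasts are known as the main makers of elastin, while endothelial cells are known to make some microfibril and fibulin proteins.

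RNA was sequenced from mouse (Mus musculus) cells that the labels call cavernous endothelial cells, taken from the corpus cavernosum and grown in medium 199 with fetal bovine serum and heparin. Cells in normal glucose (replicates 1 and 2) were compared with cells in high glucose (replicates 2 and 4), each after 72 hours. The labels give no glucose concentration, osmotic control, mouse strain, age or sex, and name no culture or animal for any replicate. The p-values can thus reflect no more than how far these libraries differ among themselves, and that difference may be technical.

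Library totals ran from 46571770 to 74971589 counts, the lowest being normal glucose replicate 2. Over 16158 genes with a count in every library, the median gap between the 2 normal glucose libraries was 0.35 on the log2 scale, against 0.18 between the high glucose libraries and 0.19 between the group means. The labelled cell type was scarcely visible in its defining transcripts. Of 10 endothelial markers, 7 averaged under 1 CPM (counts scaled to library size, after TMM scaling between libraries), the most abundant was Cdh5, Cldn5 had at most 3 counts in any library, and the summed level of the list was 11.9 to 15.3 CPM. The 9 fibroblast markers, led by Dcn, summed to 9536 to 11444 CPM, and the 8 smooth muscle markers, led by Acta2, to 272.6 to 441.7 CPM. Of the other lists given here, 6 pericyte markers, led by Cspg4, summed to 374.1 to 539.2 CPM, 6 macrophage and leukocyte markers, led by Lyz2, to 65.7 to 74.2 CPM, and 5 epithelial markers, led by Cdh1, to 0.634 to 1.04 CPM. In such bulk samples, fewer cells of a type and less RNA per cell cannot be told apart.

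The scaffold of the elastic fibre was transcribed and its core almost was not. Divided by the length of each gene's merged exons, Fbln2 averaged 98.8 CPM per kb over the 4 libraries and ranked 416 of 22159 genes with a length. Eln averaged 0.00687 CPM per kb and ranked 18101, in a list where 2795 genes had no count at all. Between them came Mfap5 at 29.0, Fbln1 at 21.1, Fbn1 at 13.9, Mfap2 at 13.4, Emilin1 at 12.5, Fbln5 at 5.34, Mfap4 at 1.36 and Fbn2 at 0.0934 CPM per kb. The ranges over the 4 libraries did not overlap at the steps from Fbln2 to Mfap5, Fbln1 to Fbn1, Emilin1 to Fbln5, Fbln5 to Mfap4, Mfap4 to Fbn2 and Fbn2 to Eln. Mfap5 exceeded Fbln1 in all 4 libraries, although their ranges overlapped. Fbn1, Mfap2 and Emilin1 could not be ordered: Fbn1 was above Mfap2 in 2 libraries, and Mfap2 above Emilin1 in 2.

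**Figure D1:**
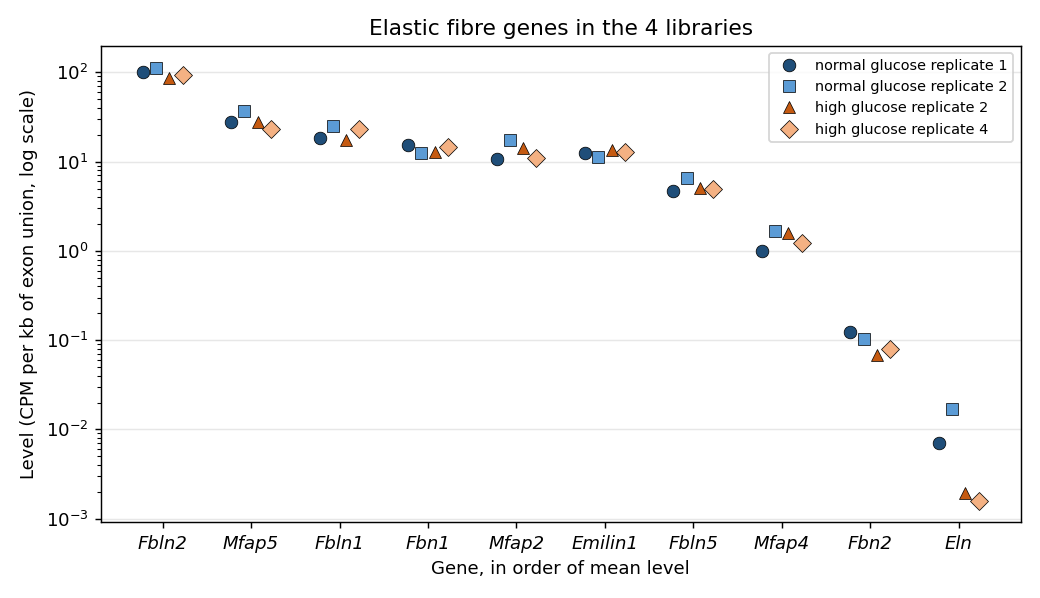
Level of each of the 10 genes in each library, in CPM per kb of merged exons on a log axis, with genes in order of their mean. Points are single libraries, blue for normal and orange for high glucose. Fbln2 lies near 100 CPM per kb in all 4 libraries, and Eln lies below 0.02 in all 4.

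Expressed as shares of the summed CPM per kb of the 10 genes, the 3 fibulins made up 60.7% to 65.9% of it in single libraries, with Fbln2 alone at 48.0% to 53.1%. The 3 microfibril-associated proteins made up 19.3% to 25.1%, the fibrillins 5.59% to 8.13% and Emilin1 4.98% to 7.56%. The share of Eln did not exceed 0.00754% in any library.

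None of these genes was called different between high and normal glucose. Of the 10, 9 passed the low-count filter, and 0 of these 9 had an adjusted p under 0.05 (edgeR's quasi-likelihood test, adjusted p from 0.991 to 0.995). Over all 16270 genes tested, 0.0123% were called. At an unadjusted p under 0.05 the count was also 0 of 9, where 5.45% of all genes passed, and DESeq2, edgeR's exact test and limma-voom called 0 members each, against 0.455%, 0.688% and 0.0123% of all genes tested. Fitted log2 fold changes ran from -0.62 to 0.16, with 7 members below 0, as were 50.8% of all genes tested, and 2 above. Their median was -0.16, against -0.0045 over all genes tested. The groups did not overlap in 3 of the 9 members, 2 lower (Fbn2 and Fbln2) and 1 higher (Emilin1) in high glucose, a share of 33.3% where the background was 32.5% in either direction, 16.3% higher and 16.2% lower. The 95% intervals of these 9 members, each for a single gene, reached no lower than a fold of 0.379 (Fbn2) and no higher than 1.79 (Mfap4). They rest on 2 libraries per group and do not cover Eln.

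**Figure D2:**
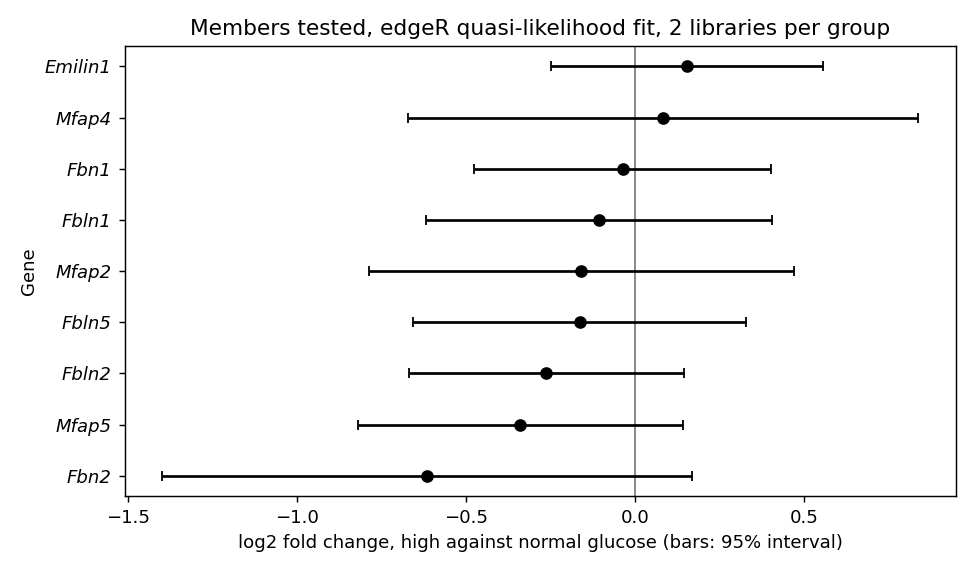
Fitted log2 fold change, high against normal glucose, of the 9 members tested. Points are estimates from 2 libraries per group and bars are 95% intervals. All 9 intervals include 0, and the one for Fbn2 is the widest, from -1.40 to 0.17.

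Eln encodes tropoelastin, the soluble monomer of the elastin core (chromosome 5, 134702593 to 134747323, minus strand, mm10). It had 4 and 6 counts in normal glucose replicates 1 and 2, and 1 count each in high glucose replicates 2 and 4. This is 12 counts among 254023679. Both high glucose values lay under a floor of 3 counts a library (0.0387 to 0.0688 CPM), the limit up to which a count was not read as detection, and both normal glucose values lay above it. The pooled level was 0.0873 CPM in normal glucose (exact Poisson 95% interval 0.0418 to 0.160) and 0.0142 CPM in high glucose (0.00171 to 0.0511). The ratio of high to normal was 0.162, with an exact 95% interval from counting of 0.0173 to 0.761. These intervals cover counting error only. Eln was removed by the filter and has no test in the main fit. With no filter its unadjusted p was 0.176 and its adjusted p 0.985 (edgeR). Its exons overlap Gm30003, on the opposite strand, over 267 bases, and 3.82% of its 32-base stretches recur in other genes. The summed smooth muscle markers lay at 308.9 and 441.7 CPM in normal and 279.0 and 272.6 CPM in high glucose, lower in both high glucose libraries. Of the 8 markers, 3 (Tagln, Des and Smtn) were lower in both high glucose libraries, beside 16.2% of all genes tested. The groups overlapped in the other 5. Their fitted log2 fold changes were -0.28 for Acta2, -0.17 for Myh11, -0.04 for Actg2, 0.20 for Cnn1 and 0.18 for Lmod1. Without Smtn, left out after its values were seen, the smooth muscle sums were 180.0 and 232.8 against 178.4 and 161.7 CPM. The summed fibroblast markers overlapped, at 9536 and 11444 against 11427 and 10474 CPM. Of the pericyte markers, Rgs5, Kcnj8 and Abcc9 were higher in both high glucose libraries, and Cspg4 was lower in both. Pdgfrb and Notch3 overlapped. Of all genes tested, 16.3% were higher and 16.2% lower without overlap. The part of any of these cell types in the Eln counts was not tested.

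Fibrillins are the long, rod-like proteins that polymerise into microfibrils, and the 2 genes were transcribed at very unequal levels. Fbn1 (chromosome 2, 125300594 to 125507993, minus strand), the main fibrillin of adult tissue, had 188.5 and 151.7 CPM in normal and 156.3 and 175.5 CPM in high glucose. The lowest and the highest value both belonged to normal glucose. Its log2 fold change was -0.04 (SE 0.19, 95% interval -0.48 to 0.40, unadjusted p = 0.854, edgeR). The gene Gm9913 overlaps 2442 bases of the exons of Fbn1 on the opposite strand, so reads of the 2 cannot be told apart unless strand was used.

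Fbn2 (chromosome 18, 58008623 to 58210487, minus strand), known as the fibrillin of developing tissue, had 116 and 59 counts in normal and 57 and 82 in high glucose. Scaled, these were 1.63 and 1.35 CPM against 0.895 and 1.06 CPM, so both high glucose libraries were lower. The log2 fold change was -0.62 (SE 0.34, interval -1.40 to 0.17, unadjusted p = 0.109, edgeR), the largest in size among the members tested. Counting error alone was 13.2% in the library with the fewest counts.

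Per kb, Fbn1 was 148.2 times as abundant as Fbn2 on average. Taken within each library, which needs no scaling between libraries, the ratio of Fbn2 to Fbn1 was 0.00795 and 0.00819 in normal and 0.00525 and 0.00553 in high glucose. On the log2 scale the means were -6.95 ± 0.029 and -7.54 ± 0.052 (SD, n = 2 each), a difference of -0.58. The ratio was lower in both high glucose libraries, with an exact two-sided permutation p of 0.333, the smallest that 2 libraries against 2 can give. Leaving out single libraries kept the difference between -0.62 and -0.54. Its sign could not change, since the ratios of the groups did not overlap.

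The microfibril-associated glycoproteins Mfap2 (MAGP-1) and Mfap5 (MAGP-2) are small, related proteins that bind fibrillin. Mfap5 (chromosome 6, 122505845 to 122529290, plus strand) had 98.8 and 133.7 CPM in normal and 99.9 and 83.8 CPM in high glucose. Normal glucose replicate 2 stood highest, and replicate 1 of that group lay between the high glucose libraries. The log2 fold change was -0.34 (SE 0.21, interval -0.82 to 0.14, unadjusted p = 0.145, edgeR). Mfap2 (chromosome 4, 141010418 to 141015984, plus strand) had 13.0 and 21.4 CPM in normal and 17.3 and 13.4 CPM in high glucose, with both extremes in normal glucose. Its log2 fold change was -0.16 (SE 0.28, interval -0.79 to 0.47).

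Mfap5 exceeded Mfap2 per kb in every library, by 2.57 and 2.11 times in normal and 1.95 and 2.11 times in high glucose. The log2 ratio differed by -0.20 between the groups, with an exact two-sided permutation p of 0.333. That smallest possible p rests on a near tie, 2.113 in normal glucose replicate 2 against 2.112 in high glucose replicate 4. The difference in log2 ratio was -0.059 without normal glucose replicate 1 and -0.34 without replicate 2 of that group. Mfap4 (chromosome 11, 61485431 to 61488900, plus strand), a fibrinogen-related protein that binds elastin and fibrillin, was far scarcer, at 1.92 and 3.19 CPM in normal and 3.01 and 2.36 CPM in high glucose. Its high glucose libraries lay inside the range of the normal ones, and the log2 fold change was 0.08 (SE 0.33, interval -0.67 to 0.84). Its exons share 89 bases with Mapk7 on the other strand.

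Fibulins are calcium-binding glycoproteins that link elastin, microfibrils and basement membranes. Fbln2 (chromosome 6, 91212455 to 91272540, plus strand), which is also found in basement membranes, had 651.5 and 721.2 CPM in normal and 547.0 and 597.6 CPM in high glucose. Both high glucose libraries were lower. The log2 fold change was -0.26 (SE 0.18, interval -0.67 to 0.14, unadjusted p = 0.177, edgeR), and the difference was larger than the gap within either group, as it was for Fbn2 and Emilin1. Such an excess over both gaps was found in 20.2% of the 16158 genes with a count in every library.

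Fbln1 (chromosome 15, 85205949 to 85286535, plus strand) had 80.6 and 110.7 CPM in normal and 77.1 and 100.4 CPM in high glucose. The libraries of each group were farther apart than the group means, and the log2 fold change was -0.11 (SE 0.22, interval -0.62 to 0.41). Within a library, Fbln2 per kb was 5.55 and 4.47 times Fbln1 in normal and 4.86 and 4.08 times in high glucose. These ratios overlapped (difference in log2 of -0.16, exact two-sided permutation p = 0.667). The difference was -0.0043 without normal glucose replicate 1, -0.32 without normal glucose replicate 2, -0.29 without high glucose replicate 2 and -0.034 without high glucose replicate 4.

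Fbln5 (chromosome 12, 101746565 to 101819055, minus strand), which carries tropoelastin onto the microfibril and is needed for elastic fibre assembly in mice, had 32.4 and 45.6 CPM in normal and 35.1 and 34.4 CPM in high glucose. Normal glucose replicate 2 was the one high library. The log2 fold change was -0.16 (SE 0.22, interval -0.66 to 0.33). Per kb, Fbln5 exceeded Eln by 673.2 and 388.0 times in normal and by 2624 and 3126 times in high glucose, where the exact 95% intervals from counting ran from 470.4 to 103671 and from 560.6 to 123526. The ratio of Eln to Fbn1 was 0.000448 and 0.00136 in normal and 0.000150 (interval 3.81e-06 to 0.000838) and 0.000110 (2.79e-06 to 0.000613) in high glucose. Both ratios rest on the 1 to 6 counts of Eln in a library, and each gave an exact two-sided permutation p of 0.333. Their size also depends on the length used. Merged exons span 8098 bases for Eln, 6911 for Fbln5 and 12128 for Fbn1, and the longest transcripts 3853, 5829 and 11971 bases. By longest transcript, Eln would stand higher against both genes. The log2 differences between the groups, 2.49 and -2.60, were the same with either length.

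Emilin1 (chromosome 5, 30913402 to 30921277, plus strand), a glycoprotein at the border between elastin and microfibrils that is known to restrain the maturation of TGF-beta, had 61.2 and 55.4 CPM in normal and 66.7 and 63.2 CPM in high glucose. It was the one member higher in both high glucose libraries. The log2 fold change was 0.16 (SE 0.18, interval -0.25 to 0.56, unadjusted p = 0.402, edgeR).

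In 6 of the 9 members tested, the 2 normal glucose libraries differed from each other by more than the groups did, which was so in 70.0% of the 16158 genes with a count in every library. Over the 9 members tested, the median gap was 0.44 on the log2 scale between the normal glucose libraries and 0.24 between the high glucose libraries, against a median difference of 0.14 between group means. Normal glucose replicate 2 was above replicate 1 in 6 of the 9, beside 51.6% of those 16158 genes. The excess was 0.74 for Mfap4, 0.72 for Mfap2, 0.49 for Fbln5, 0.46 for Fbln1, 0.44 for Mfap5 and 0.15 for Fbln2 on the log2 scale. It was below replicate 1 by 0.31 for Fbn1, 0.27 for Fbn2 and 0.14 for Emilin1.

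Leaving out normal glucose replicate 1 gave the only call of a member under any alternative that was run. The fold change of Mfap5 was then -0.54 on the log2 scale (SE 0.17, adjusted p = 0.0259, edgeR), and 1 of 9 members was called, lower, where 16.4% of all genes tested were called, 8.74% lower and 7.65% higher. That fit compares the high glucose libraries with normal glucose replicate 2 alone, which is assumed to vary like the other group. Without normal glucose replicate 2, the log2 fold change of Mfap5 was -0.11, and those of Fbln1, Fbln5 and Mfap2 turned to 0.14, 0.10 and 0.24. The signs of Fbn1, Fbln1, Fbln5, Mfap2 and Mfap4 depended on which library was left out, while Fbn2, Fbln2, Mfap5 and Emilin1 kept theirs. For Fbn2, Fbln2 and Emilin1 this could hardly be otherwise, since their groups did not overlap. Their kept signs thus add nothing to that lack of overlap.

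**Figure D3:**
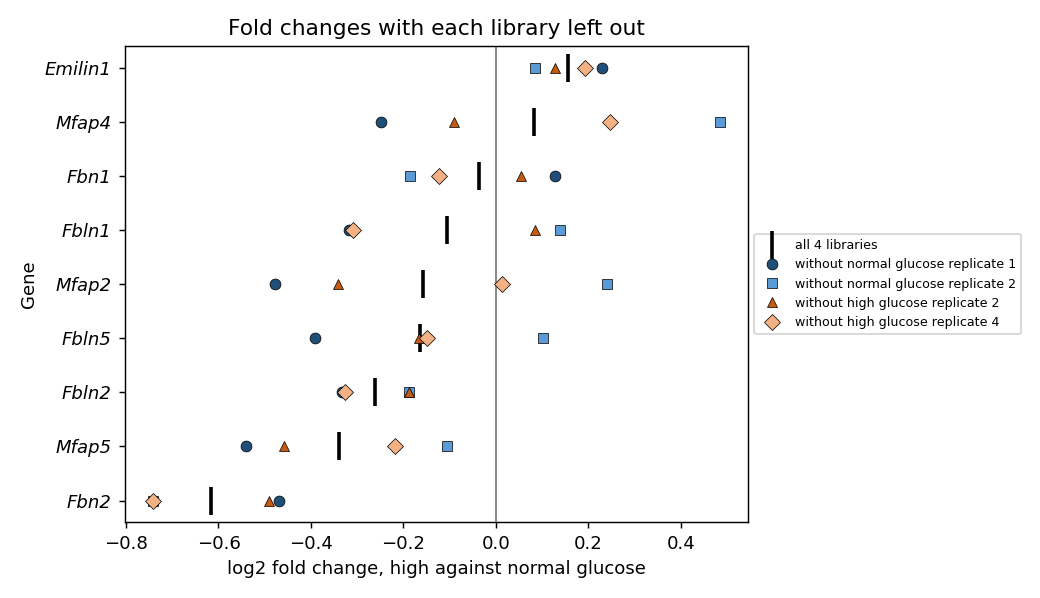
Log2 fold change, high against normal glucose, of the 9 members tested, with all 4 libraries (black bars) and without each library in turn (coloured points). The points of Mfap4 run from -0.25 to 0.48, on both sides of 0, while those of Fbn2 lie between -0.74 and -0.47. The sign of Fbn2 could hardly change, since its groups did not overlap.

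Other genes linked by role or by name with elastic fibres were read from a companion list of 55 genes in 9 roles. Of these, 51 passed the low-count filter and 0 were called (edgeR, DESeq2, edgeR's exact test and limma-voom). The list was chosen with earlier results of these data known, so none of its shares set beside the background is a test. At an unadjusted p under 0.05 (edgeR's quasi-likelihood test) there were 8 genes, 5 higher and 3 lower, or 15.7% of those tested. The background was 5.45%, 2.22% higher and 3.23% lower. The groups did not overlap in 19 genes, 8 higher and 11 lower, or 37.3% beside the background of 32.5%. The list as a whole had 34 genes below 0 and 17 above, with a median log2 fold change of -0.10. Without normal glucose replicate 1, 15 of the 51 were called (29.4%), 5 higher and 10 lower, again beside 16.4% of all genes tested.

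The cross-linking enzymes had the lowest unadjusted p. All 5 lay below 0, as did 50.8% of all genes tested, with a median of -0.22. In 4 of them the groups did not overlap, all lower in high glucose, beside 16.2% of all genes tested. Those 4 include Loxl3, with a log2 fold change of -0.07 (SE 0.17), and Loxl4, at -0.14 (SE 0.19). Lox, the lysyl oxidase that starts the cross-linking of elastin and collagen, had 1827 and 2729 CPM in normal and 1231 and 1381 CPM in high glucose (log2 fold change -0.80, SE 0.22, unadjusted p = 0.00668, adjusted p = 0.555, edgeR). Loxl2, a relative that also acts on basement membrane collagen, had 390.7 and 405.3 CPM against 219.8 and 252.3 CPM (log2 fold change -0.75, SE 0.18, unadjusted p = 0.00283, adjusted p = 0.479). Both enzymes were lower in both high glucose libraries. Loxl2 is uncertain as a single gene, since 46.2% of its 32-base stretches recur in other genes, chiefly Gm21451. Without normal glucose replicate 2, Loxl2 alone of the companion genes was called, where 0.965% of all genes were. With no low-count filter, Lox was called lower and Slpi higher, where 0.626% of all genes were called.

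Among the fibulin relatives, 3 of 4 lay below 0. Efemp2, also called fibulin-4, which is needed with Lox to assemble elastic fibres, was the most abundant of them, at 538.7 and 631.5 CPM in normal and 494.0 and 518.3 CPM in high glucose (log2 fold change -0.21, SE 0.18). Of 7 latent TGF-beta binding proteins and TGF-beta ligands, 6 lay below 0, and Ltbp3 was the most abundant, at 544.9 and 784.8 against 504.2 and 675.1 CPM. In the ADAMTS group, whose members act on or bind microfibrils, 4 of 5 genes tested lay below 0. Its most abundant gene was Adamtsl4, at 65.7 and 128.9 against 63.8 and 83.4 CPM, a wide overlap. Adamtsl2 had no count in any library. All 3 processing and chaperone genes lay below 0. They were led in level by Furin, the protease that trims fibrillin, at 310.8 and 556.6 against 320.8 and 393.9 CPM. Of all genes tested, 50.8% lay below 0. The groups did not overlap in 2 of the 4 fibulin relatives, 1 higher and 1 lower. They did not overlap in 1 of the 7 TGF-beta genes, lower, and in 0 of 5 ADAMTS and 0 of 3 processing genes. The background for lack of overlap was 32.5%.

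Other genes grouped here by microfibril and EMILIN family names, with Vcan, lay mostly above 0, in 6 of 8 tested. A shared name does not make each of them a part of elastic fibres. The 2 below 0 were Emilin2 (log2 fold change -0.096) and Mfap3 (-0.23). Of the 6 above 0, Mfap1a and Mfap1b are not separate measurements, since 63.5% and 66.2% of their 32-base stretches recur in other genes, chiefly in each other. Mmrn1, also above 0, had 6 to 12 counts a library. Mfap3l, named after its values were seen as 1 of the 8 companion genes with an unadjusted p under 0.05, had 138.7 and 131.7 CPM in normal and 190.9 and 170.2 CPM in high glucose (log2 fold change 0.42, SE 0.18, unadjusted p = 0.0458, adjusted p = 0.913, edgeR). Vcan, the large proteoglycan versican that binds fibrillin, had 528.4 and 493.0 CPM in normal and 854.7 and 771.9 CPM in high glucose, higher in both (log2 fold change 0.67, SE 0.18, unadjusted p = 0.00491, adjusted p = 0.523, edgeR). Among 6 integrin subunits, 2 lay above 0. Itga5, the alpha subunit of the fibronectin receptor, was the most abundant, at 709.9 and 847.9 against 628.5 and 689.1 CPM. Itga8 was scarce, at 2.34 and 1.12 CPM in normal and 3.63 and 3.37 CPM in high glucose (log2 fold change 0.99, SE 0.36, unadjusted p = 0.0247, adjusted p = 0.812).

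Of 8 elastin-degrading proteases tested, 5 lay above 0 and 3 below. The gelatinase Mmp2 was the most abundant, at 579.3 and 728.6 CPM in normal and 625.6 and 681.8 CPM in high glucose, with a log2 fold change of -0.00057 (SE 0.19). Mmp12, the macrophage elastase, also named after its values were seen, had 99.1 and 98.7 CPM in normal and 132.7 and 127.3 CPM in high glucose, higher in both (log2 fold change 0.39, SE 0.17, unadjusted p = 0.0492, adjusted p = 0.913, edgeR). Its exons share 157 bases with Mmp1b on the opposite strand. Cathepsin K, Ctsk, had 48.7 and 36.2 CPM in normal and 31.5 and 31.1 CPM in high glucose, lower in both. The log2 fold change of Ctsk was -0.44 (SE 0.21, unadjusted p = 0.0634, adjusted p = 0.934, edgeR), the largest in size of the 8. Neutrophil elastase, Elane, had 1, 3, 14 and 0 counts, the 14 in high glucose replicate 2, and did not pass the filter. Among the 5 protease inhibitors, 4 lay below 0. Timp2 was the most abundant, at 4030 and 5741 CPM in normal and 3982 and 3908 CPM in high glucose. Timp3, a matrix-bound inhibitor, had 64.6 and 76.5 against 50.7 and 44.0 CPM (log2 fold change -0.57, SE 0.19, unadjusted p = 0.0153, adjusted p = 0.737, edgeR). The exons of Timp3 overlap those of Syn3, on the opposite strand, over 1733 bases. Slpi, an inhibitor of neutrophil elastase, had 1311 and 1278 CPM in normal and 2448 and 1884 CPM in high glucose, higher in both (log2 fold change 0.74, SE 0.19, unadjusted p = 0.00446, adjusted p = 0.518).

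**Figure D4:**
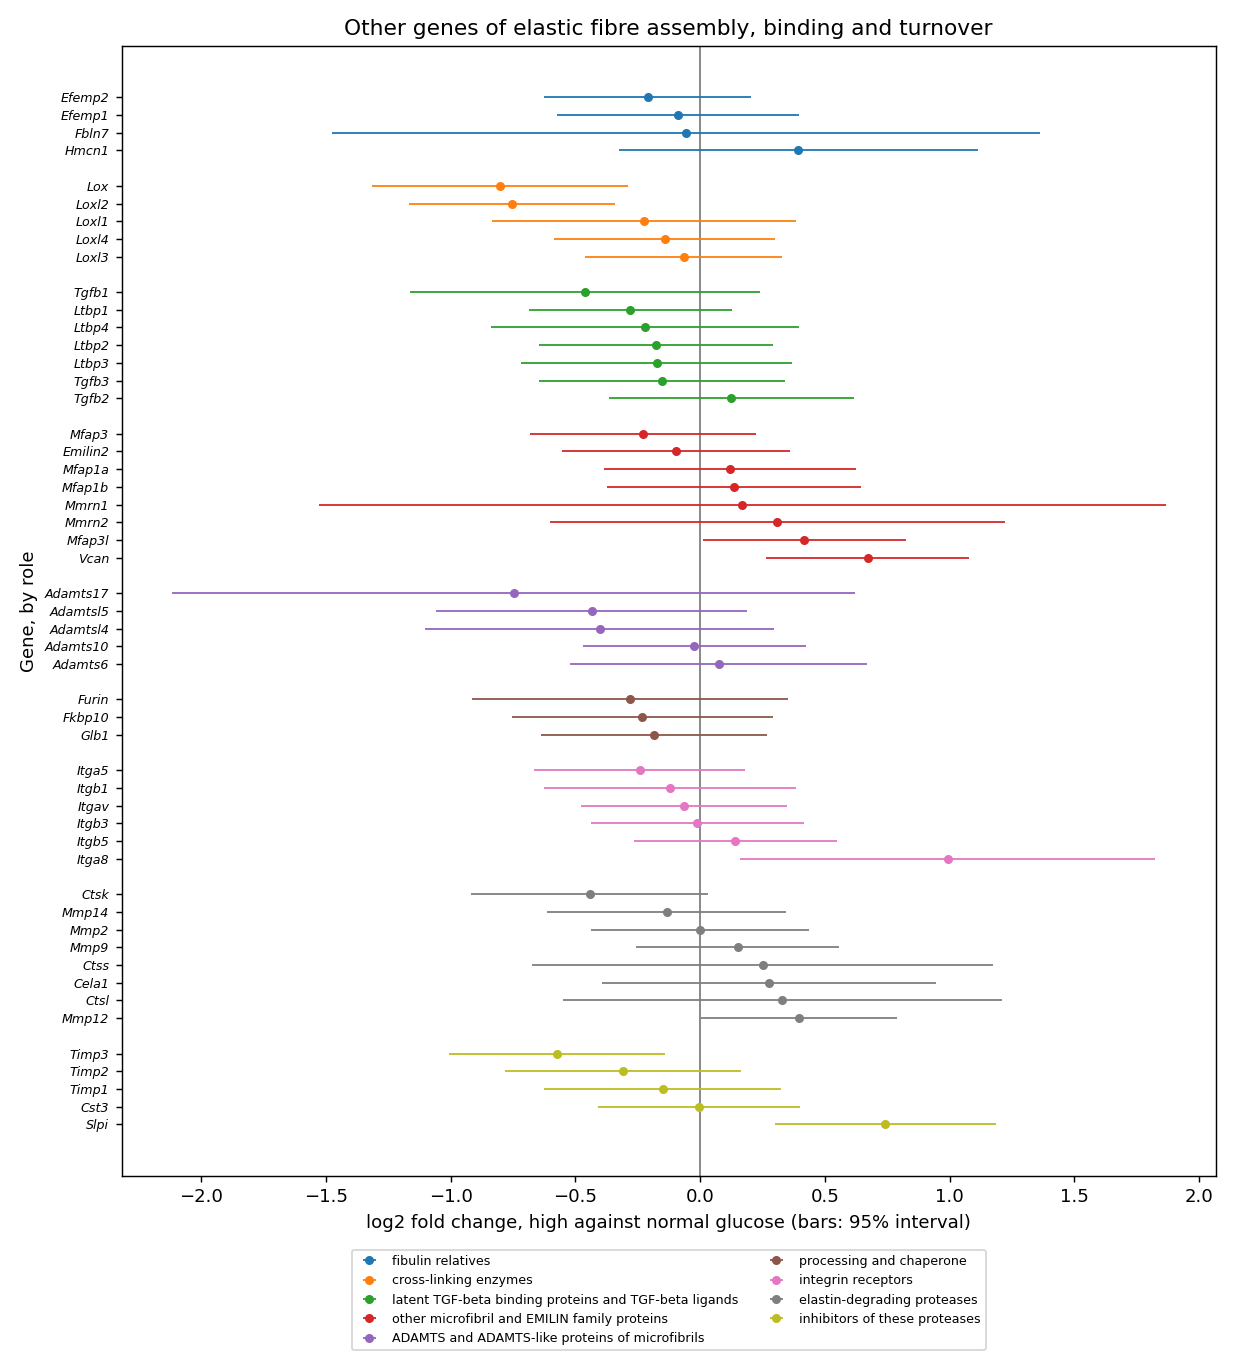
Fitted log2 fold change, high against normal glucose, of the 51 companion genes tested, grouped by role, with 95% intervals as bars. The 5 cross-linking enzymes lie left of 0, Vcan and Slpi lie right of it, and no gene was called after adjustment over all genes tested.

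By the shape of their levels over the 4 libraries, the genes most like Fbn1 among 10037 compared were Ctnna1, Sepw1, Skil, Rrbp1 and Ppp1r9a, with a root mean square difference in centred log2 CPM of 0.00663 to 0.0175. Of the 10037 genes, 120 lay within 0.05 of Fbn1 and 0 within 0.05 of Eln. With only 4 libraries, likeness to Fbn1 of this size thus does not single out the 5 genes named. For Eln the nearest were Ctgf (0.0674), Lce1g, Ciart, Nat8l and Syt5, but the profile of Eln rests on 12 counts. The measure adds a prior count of 2, close to the 1 to 6 counts of Eln in a library, which flattens its profile. Without that prior, Eln spanned 10.7-fold over the libraries, while Ctgf ran from 195.8 to 657.9 CPM. The small distance is thus partly a product of the measure.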

How the data were processed

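Per the file headers, the authors deposited raw counts, as whole numbers for each gene symbol, in 1 file for each library. TopHat, edgeR and mm10 are named, without roles or versions, per the submitters' processing notes. Not given in the sources used here are the read counter, the gene models it used, whether it used strand, and what became of multiply mapped reads. Rows sharing any of 35 symbols were summed (no member was affected).

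Genes were tested in edgeR 4.0.16 (limma 3.58.1, R 4.3.3) with TMM scaling, filterByExpr and the legacy quasi-likelihood test, group as the only term, two-sided, with Benjamini-Hochberg adjustment over 16270 genes and a threshold of 0.05. The fit was also run on simulated data, as a check of the code and not of these results. Lengths and coordinates are from GENCODE vM21 on GRCm38 (mm10), where 22159 symbols matched 1 gene.

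Members and lists were chosen with earlier results of these data known. All 10 members were named, with the 6 companion genes of smallest p and the most abundant of each role, the most abundant marker of each list, and the 5 genes most like Fbn1 and Eln in log2 CPM (prior count 2, mean of at least 5 CPM). The result of another marker list is not reported here. Elane, Adamtsl2, Cldn5 and Mmrn1 were named after their low counts were seen, and Mfap3l and Mmp12 after their p. Ctsk, Loxl3, Loxl4, Emilin2 and Mfap3 were named after their fold changes were seen. Smooth muscle and pericyte markers other than the most abundant were named after their values were seen. DESeq2 1.42.0 and other scalings, filters and tests were alternatives.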

Additional observations from a re-analysis of the deposited data

How the results depend on the processing

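No paired analysis was possible because replicate 2 is the single number present in both groups. Of 90 member fold changes under 10 alternatives that kept all libraries, 0 changed sign and 0 were called. Leaving out a library reversed 5 members. Their fold changes then ran from -0.19 (without normal glucose replicate 2) to 0.13 (normal replicate 1) for Fbn1, from -0.32 (normal replicate 1) to 0.14 (normal replicate 2) for Fbln1, from -0.39 (normal replicate 1) to 0.10 (normal replicate 2) for Fbln5, from -0.48 (normal replicate 1) to 0.24 (normal replicate 2) for Mfap2, and from -0.25 (normal replicate 1) to 0.48 (normal replicate 2) for Mfap4. The cause was not tested. Members called ranged from 0 to 1 with a library left out, and companion genes called from 0 to 15. Genes called numbered 2 in all, 127 with no low-count filter, 74 with DESeq2, 112 with edgeR's exact test, and 32 to 2667 with a library left out (2667 without normal glucose replicate 1). With no filter 2 companion genes were called. Ordering the members by the longest transcript, or by either group alone, moved 2 members each time, all among Fbn1, Mfap2 and Emilin1. On total counts alone, 4 members did not overlap, Mfap5 being the addition, where 32.2% of all genes tested did not. Depth limits Eln and Fbn2 most.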
